A study of Mus musculus with 131 samples.

Results

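The timing of Tet loss was examined by setting hepatocytes that lost Tet2 and Tet3 at 1 day of age directly against hepatocytes that lost them at 3 weeks. The genes were chosen by level alone: a mean of at least 1 FPKM (fragments scaled by transcript length and library size) in either group of double knockout (DKO) mice. This took 9855 of the 24397 genes listed. Of these, 9118 reached the level in both groups, 441 only after deletion at 1 day and 296 only after deletion at 3 weeks.

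All mice were of the C57Bl strain, and hepatocytes were taken from DKO mice and injected controls at 15 weeks of age. The DKO mice carried floxed Tet2 and Tet3 alleles and received AAV8, an adeno-associated virus, carrying Cre recombinase under the hepatocyte-specific Tbg promoter. They were injected at 1 day (3 libraries, A to C) or at 3 weeks (2 libraries, A and B). The labels list 3 RNA libraries for deletion at 3 weeks, and the third was not analysed here because no other column name gives that group. The controls, labelled WT with Cre, received the virus at 1 day (3 libraries) or at 3 weeks (3 libraries), and uninjected WT mice were sampled at 1 week (1 library), 3 weeks (3 libraries) and 15 weeks (3 libraries). Age at harvest was shared, so time since injection differed together with age at injection, as did virus dose and vein, and these cannot be told apart. Hepatocytes were purified by density gradient and sorted by size and absence of CD45, a marker of blood cells.

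Tet enzymes oxidise 5-methylcytosine, the first step in removing DNA methylation. In the liver many enhancers lose methylation after birth, while hepatocytes leave their fetal programme and acquire adult functions such as drug metabolism and bile acid synthesis. Hepatocytes around the central vein (pericentral) and around the portal tract (periportal) divide these functions between them.

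All 5 DKO libraries carried Y-linked transcripts. The control library C injected at 3 weeks and the 3 uninjected libraries at 3 weeks carried Xist, the X-inactivation RNA of female cells, and no Y-linked transcript above 0.0664 FPKM, so these libraries differed from the DKO libraries in sex. The summed level of the hepatocyte markers lay between 14085 and 18076 FPKM after deletion at 1 day and between 16190 and 18264 FPKM after deletion at 3 weeks. Albumin itself was listed at 0 in every library, which shows that an exact 0 in these values need not mean absence. The relative depth of the libraries, read from the spacing of the lowest values, lay between 0.918 and 1.3 times that of DKO 1 day library A.

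The targeted genes were measured first. Tet2 stood at 4.08, 2.82 and 3.16 FPKM after deletion at 1 day and at 1.84 and 0.824 FPKM after deletion at 3 weeks. Tet2 was thus higher after the earlier deletion (log2 difference 0.92 ± 0.22, SE, adjusted p = 0.0253 by limma with Benjamini-Hochberg adjustment), while injected controls had means of 1.55 and 2.54 FPKM. Without DKO 3 weeks library B its adjusted p was 0.396. Tet3 had means of 2.39 ± 0.566 (SD, n = 3) and 1.61 ± 0.0758 FPKM (SD, n = 2), a difference that did not pass (adjusted p = 0.157). A value over the whole gene need not fall when exons are removed, so these levels do not check the deletion.

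In the direct comparison 850 genes were called at an adjusted p under 0.05, 556 lower and 294 higher after deletion at 1 day, or 5.64% and 2.98% of the genes tested. The called genes had a median absolute log2 difference of 0.80, and 231 of them, 160 lower and 71 higher, differed by at least 1 log2 unit. Among the 9118 genes present in both groups, 714 were called (499 lower, 215 higher, 7.83%). The DKO libraries of the 2 groups did not overlap for 846 of the called genes, while 47.9% of all genes tested had no overlap. Of genes whose higher group mean was between 20 and 100 FPKM, 13.2% were called lower and 2.76% higher, against 2.31% and 3.55% of genes under 5 FPKM.

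**Figure D1:**
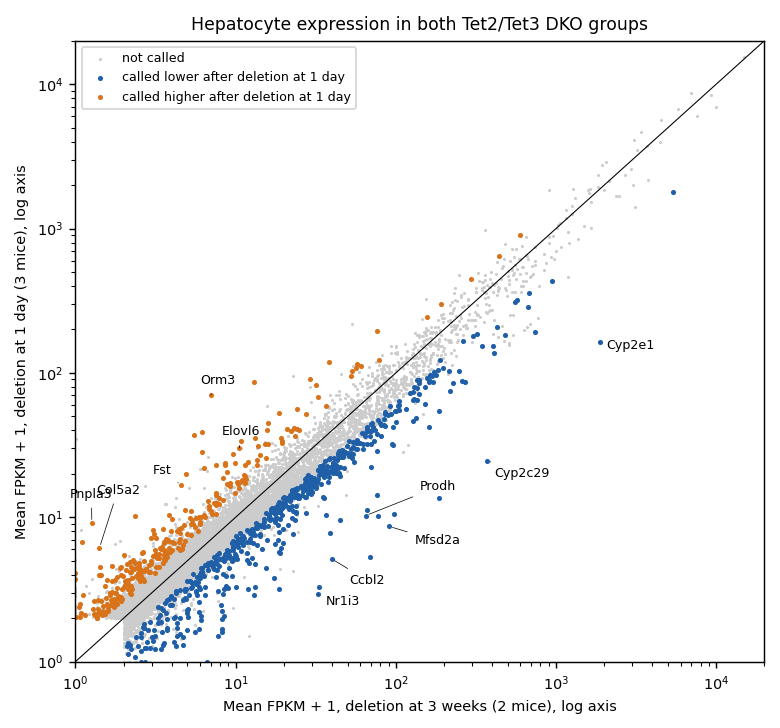
Mean expression of each of the 9855 genes after deletion at 3 weeks (horizontal axis) and at 1 day (vertical axis), as FPKM + 1 on log axes. The 556 genes called lower (blue) include the Cyp2c29 and Cyp2e1 points far below the line of equality, and the 294 called higher (orange) include Pnpla3 and Orm3 above it.

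The number and the direction of these calls moved with transcript length. Summed exon length was known for 9171 genes, 93.1% of those tested. Of the 486 genes with exons under 1000 bases, 12.3% were called lower and 1.23% higher, and of the 900 genes over 8000 bases, 0.667% were called lower and 7.22% higher. The median log2 difference ran from -0.40 in the shortest class to 0.22 in the longest. Each library's own departure, long minus short genes, was 0.35, -0.31 and 0.38 log2 units after deletion at 1 day, and -0.23 and -0.74 after deletion at 3 weeks, and between -0.44 and 0.31 in the injected controls. DKO 3 weeks library B stood lowest of all 18 libraries on this scale. When the trend with length was removed from each library, a step added after seeing the data, 1544 of the 9171 genes were called, 799 lower (8.71%) and 745 higher (8.12%), and 688 of the 797 earlier calls with a known length were made again, all in the same direction. Genes described below kept their call after removal of the trend except where stated. Without DKO 3 weeks library B 65 genes were called, without DKO 1 day library A 138, without library C 273, and without DKO 1 day library B 1662.

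**Figure D2:**
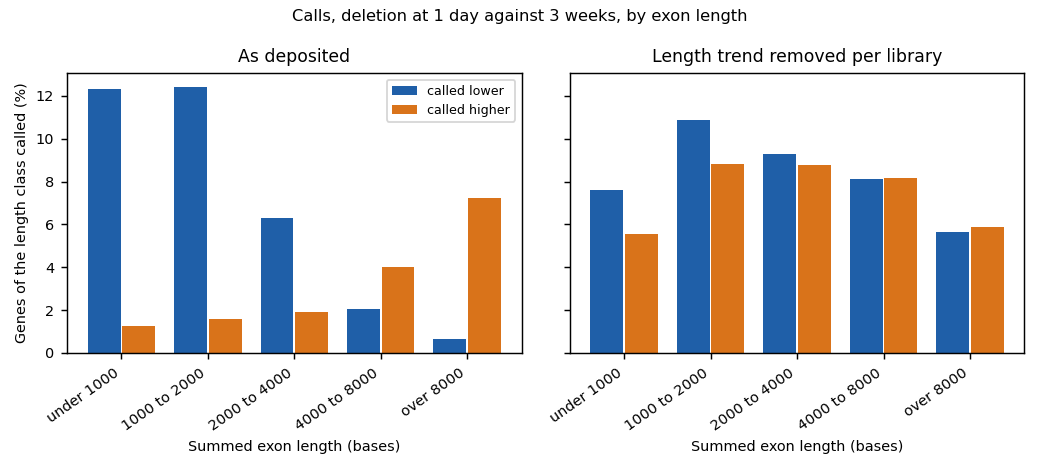
Share of genes called lower (blue) and higher (orange) after deletion at 1 day, by summed exon length in bases, with values as deposited (left) and with each library's length trend removed (right). On the left 12.3% of the shortest genes were called lower and 7.22% of the longest higher, while on the right both shares lay between 5.56% and 10.9% in every class.

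The 89 genes of ribosomal proteins, counted after their values were seen, moved with this pattern. After deletion at 1 day 42 of them were lower and none higher by the limma test, with a median log2 difference of -0.74, and none passed without DKO 3 weeks library B. Their summed level was 2499, 3461 and 2391 FPKM after deletion at 1 day and 4035 and 5377 FPKM after deletion at 3 weeks, and it ranged between 3117 and 5737 FPKM in injected controls. With the length trend removed 49 of the 81 genes of known length were lower, with a median of -0.47. As deposited 47.2% of the 89 were lower, against 5.64% of all genes, and with the trend removed 8.71% of all genes were lower. Malat1, a long nuclear RNA, stood at 128, 77.4 and 152 FPKM after deletion at 1 day against 49.9 and 24.5 FPKM (log2 difference 1.68 ± 0.40, SE, adjusted p = 0.0253). Its adjusted p was 0.393 without DKO 3 weeks library B. The part of RNA quality or library preparation in these differences was not tested.

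Of the 66 genes named by the rule that passed the test, 24 kept their call under each alternative in which they were tested, 17 lower and 7 higher. Of at most 25 alternatives, H19 was tested in 23, and Mup2, Mup10, Mup11 and Sult2a7 in 24. The descriptions below lead with these 24. The other 42 lost their call when DKO 3 weeks library B was left out.

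Cyp2c29, Cyp2c50, Cyp2c37 and Cyp2c54, neighbours on chromosome 19, were among the genes with the largest differences and were lower after deletion at 1 day. These cytochrome P450 enzymes oxidise drugs and fatty acids. Cyp2c29 (mm9 chromosome 19, 39361574 to 39405203) stood at 25.3, 30.3 and 15.4 FPKM after deletion at 1 day and at 372 and 367 FPKM after deletion at 3 weeks. The group means differed 15.6-fold (log2 difference -3.96 ± 0.26, SE, adjusted p = 8.28e-07 by limma), and injected controls lay between 469 and 863 FPKM. Cyp2c50 (chromosome 19, 40164168 to 40188445) had 13, 17.1 and 7.67 against 175 and 196 FPKM. Cyp2c37 (chromosome 19, 40066913 to 40086733) had 4.75, 5.43 and 2.75 against 66.1 and 70.2 FPKM. Cyp2c54 (chromosome 19, 40112429 to 40148303) had 9.99, 13 and 5.46 against 92.5 and 102 FPKM. In none of the 4 genes did the libraries of the 2 groups overlap, but this was a condition for naming them, and 47.9% of all genes tested had no overlap. Both DKO groups stood below their own controls for Cyp2c29 (log2 differences -4.69 and -1.06), and the 2 deletion effects differed by -3.63 log2 units (adjusted p = 3.65e-05). These are close paralogs that can share reads, so their separate levels are uncertain.

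Across the family, 16 of 74 cytochrome P450 genes tested were lower and 2 higher, against 5.64% and 2.98% of all genes. After removal of the length trend 12 of 71 were lower and 9 higher, when 8.71% and 8.12% of all genes were. The median log2 difference of the family was -0.16, and -0.13 without DKO 3 weeks library B. Of the 74, 6 reached the level in 1 of the groups only, and of the other 68, 11 were lower and 2 higher. Cyp2d26 and Cyp20a1 were the 2 that were higher. Cyp2c44 fell by 0.89 on the log2 scale. Cyp2c39 fell by 1.36. Cyp2c67 had a difference of -0.80 (adjusted p = 0.164) and Cyp2c70 of 0.12 (adjusted p = 0.797). Nr1i3 (mm9 chromosome 1, 173144100 to 173148976) encodes CAR, the nuclear receptor that activates Cyp2b10 and several Cyp2c genes. It stood at 2.01, 1.74 and 2.04 FPKM after deletion at 1 day and at 30.7 and 32.7 FPKM after deletion at 3 weeks (16.4-fold, log2 difference -3.48 ± 0.37, SE, adjusted p = 4.4e-05). Injected controls ranged between 30.8 and 141 FPKM, so the later deletion sat at their lower edge and the earlier one far below it. Cyp2b10 itself stood at 0.328, 0.786 and 0.85 against 2.71 and 5.25 FPKM, with control means of 1.76 and 13.3 FPKM (adjusted p = 0.0449, or 0.0504 with the length trend removed).

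Of the xenobiotic metabolism list 11 of 27 genes tested were lower and none higher (40.7% lower, against 5.64% of all genes), and the median log2 difference was -0.65, against -0.05 over all genes. Cyp2b10 and Cyp1a1 reached the level only after deletion at 3 weeks, and of the 25 genes at the level in both groups 9 were lower. After removal of the length trend 9 of the 27 were lower and 1 higher, when 8.71% and 8.12% of all genes were. Without DKO 3 weeks library B 5 were lower. The other members that passed were Gstm2, Gsta3 and Gsta4, which conjugate glutathione, and the oxidases Cyp2b10, Cyp1a2 and Cyp1a1. Gsta4 lost its call with the length trend removed (adjusted p = 0.0699). Gstm2 had 4.41, 5.86 and 3.57 against 14.9 and 20.9 FPKM. Among other receptors of the same response, Nr1i2 (the pregnane X receptor) had a log2 difference of -0.53 (adjusted p = 0.157) and Ahr -0.47 (adjusted p = 0.3), neither past the threshold.

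**Figure D3:**
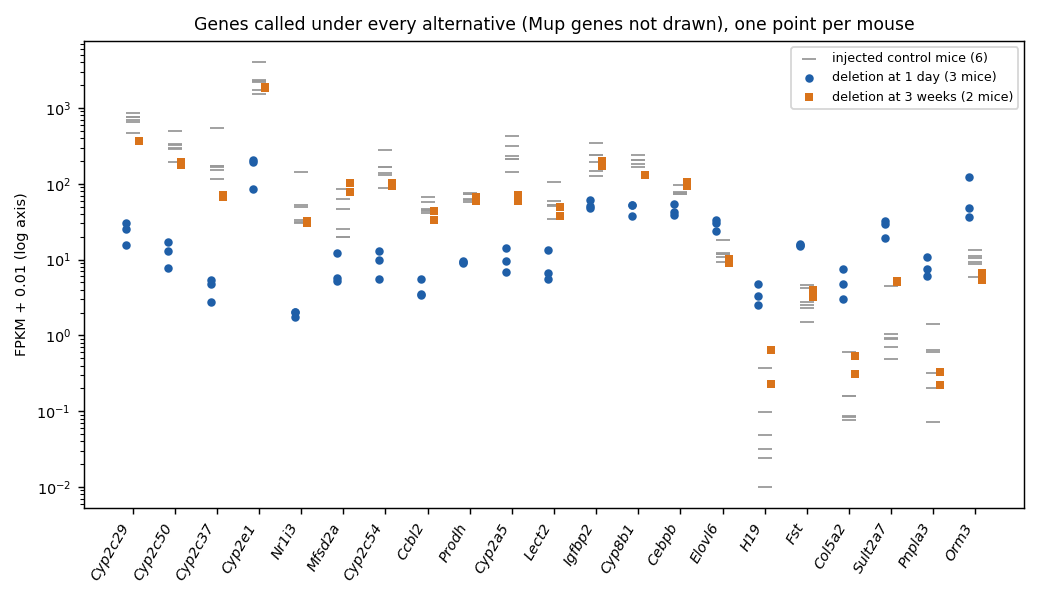
FPKM + 0.01 on a log axis for 21 of the 24 genes called under each alternative that tested them (the 3 Mup genes are not drawn). There is 1 point per mouse: deletion at 1 day (blue circles), deletion at 3 weeks (orange squares) and injected controls (grey bars). For Prodh, Ccbl2, Cebpb and Elovl6 the 3 week deletion lies within or beside the controls while the 1 day deletion lies apart.

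Of 13 genes of the pericentral zone tested, 7 were lower and none higher (53.8% lower, against 5.64% of all genes), with a median of -1.44. After removal of the length trend 7 of the 13 were lower, when 8.71% of all genes were. Without DKO 3 weeks library B 3 of them were lower. Cyp2e1 (mm9 chromosome 7, 147949730 to 147960876), an oxidase of ethanol and acetaminophen, stood at 207, 194 and 85.3 FPKM against 1818 and 1918 FPKM (11.5-fold, log2 difference -3.62 ± 0.36, SE, adjusted p = 2.8e-05). Its 3 week deletion mean of 1868 FPKM was close to the control means of 2059 and 2649 FPKM. Cyp2a5 had 9.58, 14.2 and 6.86 against 58.9 and 70.6 FPKM, with no control under 144 FPKM. Oat, ornithine aminotransferase, had 11.1, 13.7 and 14.9 against 76.3 and 74.9 FPKM, and its adjusted p was 0.00599, or 0.0852 without DKO 3 weeks library B. Lect2, a secreted hepatocyte protein, had 6.7, 13.4 and 5.46 against 38.1 and 49.1 FPKM. The glutamate transporter Slc1a2, the vitamin C enzyme Gulo and Cyp1a2 were also lower. Glul, glutamine synthetase of the cells next to the central vein, had a log2 difference of -1.44 that did not pass (adjusted p = 0.12), and the Wnt feedback genes Rnf43 and Znrf3 stood at 0.02 and 0.03. In RNA from pooled cells, fewer cells of a zone and less RNA per cell cannot be told apart.

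Of 12 periportal genes tested, Ctsc alone was higher and Sdsl alone lower (8.33% each, against 2.98% higher and 5.64% lower of all genes). The median was 0.13, and 7 of the 12 had an unadjusted p under 0.05 by limma, against 2952 of all 9855 genes. Ctsc, cathepsin C, stood at 75.7, 101 and 92.6 FPKM against 28.1 and 27.7 FPKM (adjusted p = 0.00415). Sdsl lost its call with the length trend removed (adjusted p = 0.0808). None of the 8 urea cycle genes passed by limma (3 at an unadjusted p under 0.05), with a median of -0.40. None of the 15 genes of glucose metabolism passed by limma (4 at an unadjusted p under 0.05), with a median of -0.12. Once the length trend was removed 3 of the 15 were higher, when 8.12% of all genes were.

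Among the other genes with the largest differences, Prodh, proline dehydrogenase (mm9 chromosome 16, 18071818 to 18089283), had 9.34, 9.52 and 8.94 FPKM after deletion at 1 day and 59.8 and 67.7 FPKM after deletion at 3 weeks. The log2 difference was -2.66 ± 0.20 (SE, adjusted p = 1.11e-06). Controls lay between 58.2 and 74.7 FPKM, so the 3 week deletion sat within their range. Ccbl2, which encodes kynurenine aminotransferase 3 (mm9 chromosome 3, 142364043 to 142407874), had 3.43, 3.51 and 5.53 against 33.7 and 43.7 FPKM, with controls between 41.6 and 66.2 FPKM, so 1 of the libraries with deletion at 3 weeks lay below them. Its deletion effects were -3.32 log2 units at 1 day and -0.36 at 3 weeks, and they differed (adjusted p = 3.65e-05). Mfsd2a, a lysophospholipid transporter, had 5.63, 5.25 and 12.1 against 77.8 and 102 FPKM, with controls between 19.8 and 86.6 FPKM. The metallothioneins Mt1 and Mt2 were lower, Mt1 at 3.76, 4.76 and 19 against 42.3 and 110 FPKM, but their adjusted p rose to 0.233 and 0.261 without DKO 3 weeks library B. Lhpp, a phosphatase, had 0.583, 0.659 and 0.585 against 6.33 and 8.19 FPKM.

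Major urinary proteins are secreted by male hepatocytes under growth hormone. The 23 records of this family summed to 6437, 7696 and 5098 FPKM after deletion at 1 day and to 14325 and 20959 FPKM after deletion at 3 weeks. The injected controls summed to between 9953 and 23722 FPKM. Of the 23, 6 passed and all 6 were lower, 3 of them also without DKO 3 weeks library B and 5 after removal of the length trend, but near-identical copies share reads, and Mup10, Mup11 and the record of Mup2 that passed were listed at 0 in every injected control, so the sum is given first. Over all genes 5.64% were lower and 2.98% higher, against 26.1% lower of the 23 records. With the length trend removed 8.71% of all genes were lower. Of 14 male-biased genes Mup3 alone was lower (5 at an unadjusted p under 0.05). Of 12 female-biased genes Sult1e1, the estrogen sulfotransferase, alone was higher (1.87, 14.2 and 1.14 against 0.102 and 0.0943 FPKM). Sult1e1 reached the level only in the group where it was higher. Of the 10 female-biased genes at the level in both groups none passed by limma (of all 12, 3 had an unadjusted p under 0.05). Against controls injected at 1 day, deletion at 1 day left 7 of the 14 male-biased genes lower and 1 higher. Of the 12 female-biased genes 4 were higher and 1 lower in that comparison. It called 17.1% of all genes lower and 4.69% higher. Controls injected at 3 weeks held both sexes and enter the spread that limma shares, which can keep sex-biased genes from passing.

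Of 17 genes of fatty acid synthesis tested, 5 were higher and 1 lower (29.4% higher, against 2.98% of all genes). The median was 0.71. Pnpla3 reached the level only in the group where it was higher, and of the 16 at the level in both groups 4 were higher and 1 lower. After removal of the length trend 6 of the 17 were higher and none lower, when 8.12% and 8.71% of all genes were. Without DKO 3 weeks library B 2 were higher, Pnpla3 and Elovl6. Pnpla3, a lipid droplet lipase (mm9 chromosome 15, 83998245 to 84019951), had 6.05, 7.48 and 10.8 FPKM against 0.214 and 0.314 FPKM. The log2 difference was 2.82 ± 0.21 (SE, adjusted p = 1.11e-06). Controls lay between 0.0623 and 1.41 FPKM, below every library with deletion at 1 day. Elovl6, which elongates palmitate (mm9 chromosome 3, 129235303 to 129341411), had 23.5, 30.8 and 33.2 against 8.98 and 10.1 FPKM. Acacb, an acetyl-CoA carboxylase, had 21.9, 16.5 and 30.1 against 7.63 and 7.56 FPKM. Acacb was not above its controls after deletion at 1 day (log2 difference 0.20, adjusted p = 0.558) and lay below its controls after deletion at 3 weeks (-1.33, adjusted p = 0.00891). Acaca and Gpam were the other 2 that were higher, and Acaca lost its call with the length trend removed (adjusted p = 0.0855). Fasn had a difference of 1.07 (adjusted p = 0.0621) and Scd1 of 1.02 (adjusted p = 0.125). Thrsp, a lipogenic cofactor, was lower at 89.7, 84.9 and 84.5 against 160 and 356 FPKM, and lost its call with the length trend removed (adjusted p = 0.093).

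In cholesterol synthesis 3 of 22 genes were higher and none lower (13.6% higher, against 2.98% of all genes), with a median of 0.25. Dhcr7, the last enzyme of the pathway, had 60.1, 53.3 and 59.8 against 35.4 and 36.2 FPKM. Sc5d and Lss were the others, and Lss lost its call with the length trend removed (adjusted p = 0.0841). None of the 3 passed without DKO 3 weeks library B. Of 21 genes of fatty acid oxidation, Acot1 alone was lower (4.76%, against 5.64% of all genes), at 0.913, 0.81 and 1.18 against 5.76 and 8.65 FPKM. Acot1 reached the level only after deletion at 3 weeks, and none of the 19 genes at the level in both groups passed by limma. In bile acid synthesis and transport 3 of 15 genes were lower and none higher (20% lower, against 5.64% of all genes), with a median of 0.01. Cyp8b1, the sterol 12-alpha-hydroxylase that sets the share of cholic acid, had 53, 38.2 and 52.1 against 132 and 133 FPKM (adjusted p = 0.00083), with controls between 167 and 243 FPKM. Nr0b2 (SHP), the repressor of bile acid synthesis, had 42.2, 16.8 and 24.5 against 56 and 95.5 FPKM. Its adjusted p of 0.048 rose to 0.0884 with the length trend removed and to 0.452 without DKO 3 weeks library B. Cyp7a1, the rate-limiting enzyme of the pathway, had a log2 difference of -0.36 that did not pass (adjusted p = 0.719).

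**Figure D4:**
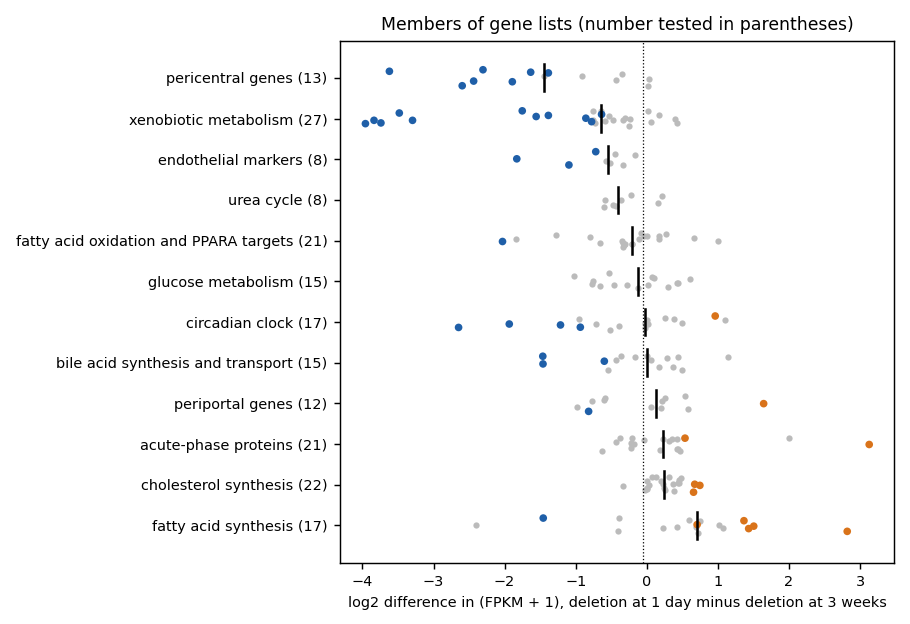
The log2 difference of FPKM + 1, deletion at 1 day minus deletion at 3 weeks, for each member of 12 gene lists. Coloured points passed the test (blue lower, orange higher), grey points did not, black bars are the list medians and the dotted line is the median of all genes, -0.05. Pericentral genes have the lowest median, -1.44, and fatty acid synthesis the highest, 0.71.

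Other genes that passed were higher after deletion at 1 day. Orm3, an acute-phase glycoprotein (mm9 chromosome 4, 63017195 to 63020545), had 47.7, 124 and 36.1 FPKM against 5.37 and 6.64 FPKM (11.5-fold, log2 difference 3.13 ± 0.47, SE, adjusted p = 0.00147). Of 21 acute-phase genes Orm3 and Itih3 were higher and none lower (9.52% higher, against 2.98% of all genes). After removal of the length trend 7 of the 21 were higher, when 8.12% of all genes were. Fst, which encodes the activin antagonist follistatin (mm9 chromosome 13, 115242469 to 115248938), had 15.2, 16.2 and 15.6 against 3.19 and 3.96 FPKM. Inhba, the subunit of activin A itself, had 15.1, 6.34 and 5.98 against 2.19 and 0.488 FPKM, with an adjusted p of 0.0082, or 0.233 without DKO 3 weeks library B. Sult2a7, a hydroxysteroid sulfotransferase, had 19.5, 29.5 and 32.5 against 5.1 and 5.28 FPKM, and controls lay between 0.479 and 4.43 FPKM. Myc had 27.8, 56 and 24.1 against 5.74 and 3.27 FPKM, with control means of 4.84 and 19.4 FPKM, and its adjusted p was 0.0194, or 0.284 without DKO 3 weeks library B. Gbp11, Tff3 and H2-Q8 were higher too. H2-Q8, a class I histocompatibility gene, had 21.1, 17.2 and 18.7 against 5.18 and 2.57 FPKM, with control means of 13.1 and 22.1 FPKM, so the 3 week deletion was the group apart from the controls. The record Mir8094 also met the rule, but its 2 values after deletion at 3 weeks were in effect 0, and it is not described further.

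Collagen genes were counted after their values were seen. Of 9 tested, 6 were higher and none lower, against 2.98% higher and 5.64% lower of all genes. However, Col5a2, Col4a5 and Col15a1 reached the level only in the group where they were higher, and of the 6 at the level in both groups 3 were higher. Col4a1 lost its call with the length trend removed (adjusted p = 0.0743). Col5a2 alone passed without DKO 3 weeks library B. Col5a2 (mm9 chromosome 1, 45431175 to 45560127) had 3.04, 7.6 and 4.75 FPKM against 0.521 and 0.301 FPKM, with controls between 0.0654 and 0.587 FPKM. Col27a1 had 20, 22.3 and 21 against 6.11 and 4.65 FPKM. Col4a1, Col4a2, Col4a5 and Col15a1 were the other 4. The defining collagens of stellate cells and fibroblasts, Col1a1, Col1a2 and Col3a1, stayed at or below 0.354 FPKM in the 3 libraries with deletion at 1 day.

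Of 12 fetal liver genes 3 reached the level to be tested, H19 and Meg3 only after deletion at 1 day. H19, a maternally expressed fetal RNA (mm9 chromosome 7, 149761436 to 149764051), had 2.49, 4.81 and 3.32 FPKM against 0.216 and 0.622 FPKM (log2 difference 1.66 ± 0.19, SE, adjusted p = 9.01e-05). In injected controls it did not exceed 0.356 FPKM. Peg3, a paternally expressed zinc finger gene, had 4.39, 2.33 and 4.55 against 1.54 and 0.673 FPKM (adjusted p = 0.0287, or 0.393 without DKO 3 weeks library B).

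Of 17 transcription factors of the liver 1 was higher and 1 lower (5.88% each, against 2.98% higher and 5.64% lower of all genes), with a median of 0.10. Cebpb, a factor of the acute-phase and gluconeogenic response, had 53.9, 42.2 and 38.8 against 104 and 94.3 FPKM (adjusted p = 0.0037), with controls between 73.9 and 96.5 FPKM. Esr1, the estrogen receptor, had 4.41, 3.25 and 4.5 against 1.46 and 1.1 FPKM (adjusted p = 0.0146, or 0.237 without DKO 3 weeks library B). Igfbp2, a binding protein of insulin-like growth factors, had 61.1, 47.8 and 50.7 against 198 and 171 FPKM (adjusted p = 0.00278), and was the only 1 of 14 genes of insulin and growth hormone signalling that passed.

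Genes of the circadian clock moved in both directions. Of 17, 4 were lower (Dbp, Gm129, Tef and Nr1d2) and Npas2 was higher (23.5% and 5.88%, against 5.64% and 2.98% of all genes). Gm129 and Npas2 reached the level in 1 of the groups only. Dbp, an output of the clock, had 0.219, 2.5 and 3.85 against 10.6 and 24.5 FPKM, Gm129, a repressor, had 0.493, 0.548 and 0.503 against 1.58 and 12 FPKM, and Npas2, an activator, had 2.02, 0.993 and 0.519 against 0.134 and 0.0184 FPKM. None of the 5 passed without DKO 3 weeks library B (for Dbp adjusted p = 0.423). The hour of harvest was not given in the sources used here, so its part was not tested.

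Markers of other liver cells also differed. The endothelial markers summed to between 18.2 and 26.6 FPKM after deletion at 1 day and between 33 and 44.3 FPKM after deletion at 3 weeks, with injected controls between 31.7 and 38.5 FPKM. Most of this sum was Dpp4 in the 1 day deletion and the controls. Without Dpp4 the sums were 6.96, 4.58 and 4.95 FPKM after deletion at 1 day, within the control range of 4.23 to 11.9 FPKM, and 12.6 and 26.9 FPKM after deletion at 3 weeks, above it. Of 8 tested, 3 (Clec4g, Oit3 and Stab2) were lower (37.5%, against 5.64% of all genes), but Oit3 and Stab2 reached the level only after deletion at 3 weeks. Kupffer cell and macrophage markers summed to between 2.53 and 6.43 FPKM against 8.68 and 16.4 FPKM, with injected controls between 2.5 and 13.8 FPKM. None of 5 tested passed by limma (4 at an unadjusted p under 0.05). Stellate and fibroblast markers summed to between 3.91 and 5.97 FPKM against 8.17 and 34.7 FPKM, most of it Dcn, at 29.1 FPKM in DKO 3 weeks library B. Injected controls lay between 3.94 and 26.5 FPKM. Cholangiocyte markers summed to between 8.71 and 13.2 FPKM against 6.05 and 7.71 FPKM, with injected controls between 6.95 and 21.3 FPKM. Sox9 was higher, but reached the level only in the group where it was higher, while Krt19 stayed at or below 0.0528 FPKM in all 5 libraries. Lymphocyte and neutrophil markers summed to at most 1.19 FPKM and erythroid markers to between 12.2 and 21.4 FPKM in the 5 libraries. In injected controls erythroid markers summed to between 5.45 and 70.7 FPKM. The part of these cells in the differences was not tested. Each of the lists of interferon response and cell cycle held 1 higher gene (Mx2 and Mcm6), each of the lists of iron handling and unfolded protein response 1 lower gene (Fth1 and Trib3), apolipoproteins 1 higher gene (Abca1), and early response and heat shock genes none, by the same limma test (0 of 13 at an unadjusted p under 0.05). Mcm6 reached the level only in the group where it was higher. Oit3 and Trib3 lost their calls with the length trend removed (adjusted p = 0.058 and 0.0605).

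Genes were next grouped by when uninjected WT hepatocytes induced them, a measure the choice of genes did not use. The 75 genes at least 1 log2 unit above their 1 week value in each 3 week library, and within 0.5 log2 units of their 3 week mean at 15 weeks, had a median log2 difference of -0.44, and 13 of them were lower and 3 higher (17.3% and 4%, against 5.64% and 2.98% of all genes). After removal of the length trend 14 of 70 were lower and 7 higher. Prodh, the retinol dehydrogenase Rdh16, the tyrosine-breakdown enzyme Hpd, cysteine dioxygenase Cdo1 and Ahcy of the methionine cycle belonged here and were lower. Prodh rose from 0.588 FPKM at 1 week to a mean of 89.7 FPKM at 3 weeks in WT. The 177 genes level until 3 weeks and then higher by the same limits had a median of -0.13, with 22 lower and 8 higher (12.4% and 4.52%), and 20 lower and 18 higher of 171 after removal of the trend, when 8.71% and 8.12% of all genes were called. Here Lhpp and Mup4 were lower while Acacb and Gpam were higher. The difference between the classes was not tested, and the 1 week group was 1 library (of 2 in the labels). The 3 WT libraries at 3 weeks differed in sex from the DKO libraries. They also differed in sex from the WT libraries at 1 week and 15 weeks, which carried Y-linked transcripts. Sex and age thus cannot be told apart in either class. Without DKO 3 weeks library B 2 genes of each class were lower.

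Each DKO group was also set against its own injected controls, which share no library with the other group's controls. Deletion at 1 day gave 1685 genes lower (17.1%) and 462 higher (4.69%), and deletion at 3 weeks gave 437 lower (4.43%) and 104 higher (1.06%). These counts are not matched, because deletion at 1 day had 3 libraries and deletion at 3 weeks 2. Controls injected at 3 weeks also included library C, which differed in sex from the DKO libraries and from the other injected controls. The 2 sets of controls differed at 2 genes (0.0203%), with 733 at an unadjusted p under 0.05 by limma. The test of the difference between the 2 effects called 561 genes lower (5.69%) and 333 higher (3.38%). Without control 3 weeks library C this test called 444 genes. For the 556 genes lower in the direct comparison the median effect of deletion at 1 day was -0.72 and that of deletion at 3 weeks 0.25. For the 294 higher genes these medians were 0.47 and -0.46. These comparisons share the DKO libraries with the direct one, so the values are given side by side and not as separate evidence. Without control 1 day library C the difference of effects was called for 72 genes and without DKO 3 weeks library B for 33.

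Methylation in mice of the same numbers was a readout that the choice of genes did not use. The methylation columns name only an animal number, so their group was inferred from the expression column with that number. Reduced representation bisulfite sequencing (RRBS) gave the methylated share of CpG readings in 100 base tiles, for 2 mice of each DKO group (the labels list more RRBS samples of these groups, not analysed here). Coverage is not in the values used, so their precision is unknown, and 2 mice against 2 cannot give an exact two-sided permutation p under 0.333. A tile was taken to differ where the group means were at least 35 points apart and the mice did not overlap. Of 486757 tiles measured in the 4 mice, 3941 were higher (0.81%) and 810 lower (0.166%) after deletion at 1 day. Median methylation over the tiles was 84.2% and 83.9% after deletion at 1 day, 83% and 83.1% after deletion at 3 weeks, and between 80.4% and 82.6% in injected controls.

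Around the called genes, tiles were counted from 5 kb before the start to 1 kb after the end. Of 482 genes called lower with a tile measured, 54 (11.2%) held a tile with higher methylation after deletion at 1 day, close to the 907 of 7890 genes not called (11.5%). Of 260 genes called higher, 53 (20.4%) did, but these had a median of 18 tiles each against 12 for the genes called lower and 14 for those not called. By tile the shares were 1.32% for both called classes and 1.02% for genes not called. The genes with the largest expression differences had few tiles: Cyp2c29 had 2, with differences of at most 6.9 points, Cyp2e1 had 2, with differences of at most 13.3 points, and Cyp2c50, Cyp2c37 and Cyp2a5 had none. Nr1i3 had 10 tiles and a largest difference of 23.2 points.

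The 3 tiles below are printed because, among the 13 tiles that differed in named genes, they hold the largest differences, 1 for each gene. Bases are those of the mm9 plus strand, read 5′ to 3′, with each CpG in capitals.
Nr0b2 tile: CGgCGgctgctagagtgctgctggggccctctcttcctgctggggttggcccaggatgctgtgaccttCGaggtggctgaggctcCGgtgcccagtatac
Malat1 tile: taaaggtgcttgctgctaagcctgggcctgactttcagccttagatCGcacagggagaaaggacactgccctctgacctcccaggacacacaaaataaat
Elovl6 tile: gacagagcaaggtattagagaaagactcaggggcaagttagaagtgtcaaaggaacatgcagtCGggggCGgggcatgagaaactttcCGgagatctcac

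The Nr0b2 tile (chr4:133109601-133109700) lies in coding exon sequence, 297 bases into the gene, with 4 CpGs. It was methylated at 84.6% and 100% after deletion at 1 day and at 8.93% and 0% after deletion at 3 weeks, while all 6 injected controls were at 0%. The neighbouring tile 100 bases on had 81.8% and 100% against 58.3% and 30.8%, with controls between 0% and 5%. Nr0b2 expression was the lower of the 2 groups after deletion at 1 day, with the limits given above. The Malat1 tile (chr19:5807101-5807200), at -4529 bases from the start and in no annotated gene, had 94.1% and 92.5% against 8.33% and 33.3%, and its gene was higher. The Elovl6 tile (chr3:129260601-129260700), in an intron 25298 bases from the start, had 88.5% and 65% against 17.2% and 33.3%, and its gene was higher too. In Esr1, 4 of 72 tiles were higher after deletion at 1 day, 1 of them at 72.6% and 74% against 20.1% and 35.3%, with controls at or below 5.61%. Tiles measured around the other genes numbered 3 for Nr0b2, 9 for Malat1 and 70 for Elovl6. Of the 13 tiles that differed in named genes, 12 were higher and 1, in Stab2, was lower after deletion at 1 day. Higher tiles were also the more frequent over all tiles measured, with 3941 higher and 810 lower.

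**Figure D5:**
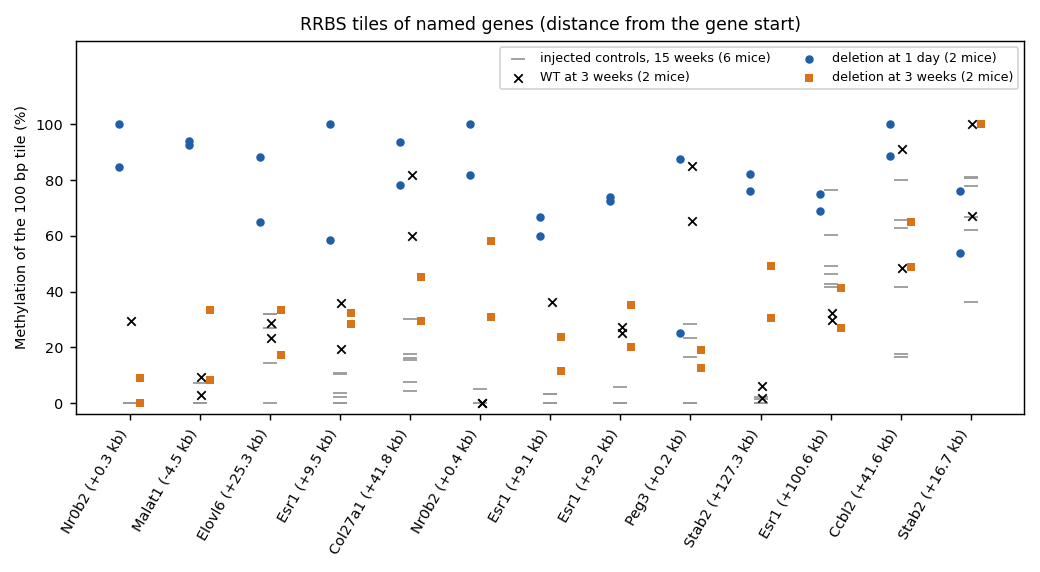
Methylation in percent of the 13 tiles that differed between the DKO groups in named genes, with the distance of each tile from the gene start, and 1 point per mouse: deletion at 1 day (blue circles), deletion at 3 weeks (orange squares), injected controls at 15 weeks (grey bars) and WT at 3 weeks (crosses). The first Nr0b2 tile stands at 84.6% and 100% after deletion at 1 day with controls at 0%. In 12 of the 13 tiles the 1 day deletion lies above the 3 week deletion, where 3941 of all tiles were higher and 810 lower.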

How the data were processed

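RNA-seq libraries (TruSeq, single-end reads) were made from sorted hepatocytes. The authors' methods name cutadapt, TopHat2 and Cufflinks, and the authors deposited FPKM values without read counts, so depth is known only relative to other libraries. RRBS reads were trimmed with Trim Galore and aligned to mm9 with BSMAP, and the authors deposited the methylated fraction per 100 base tile, without coverage.

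Expression columns were grouped by their names, which give genotype or treatment, age or day of injection, and an animal number. RRBS columns carry only an animal number, and their group was inferred from the expression column with the same number. Of the columns, 18 of 24 expression and 12 of 61 RRBS columns could be assigned to a group used here, and 6 and 49 were not used. Genes were tested as log2(FPKM + 1) in limma 3.58.1 (R 4.3.3) over all 18 libraries in 7 groups, with a trended prior and Benjamini-Hochberg adjustment. Fold changes on this scale understate changes of low genes. Column names carry mouse numbers, and p-values measure the spread between these libraries. In simulated data made from these libraries, 154 of 200 genes changed by 1 log2 unit were found among 9855, with 7 false calls, and 198 of 200 changed by 2. The simulated noise was independent between genes and lacked the length trends of the real libraries. It therefore cannot give the rate of false calls in the real comparison.

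Named genes were the 15 largest called differences in each direction without overlap, above 0 in all 5 DKO libraries and with a unique name, at most 4 called members of each gene list, at most 8 genes called also in the difference of effects, and the targeted and sex-linked genes. Families counted by symbol were added later. Exon lengths, strands and tile annotation come from GENCODE M1 (mm9). The members and lists were chosen with earlier results of these data known.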

Additional observations from a re-analysis of the deposited data

Results flagged for a closer look

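The effect of deletion, DKO minus injected controls, differed between injection at 1 day and at 3 weeks for 894 genes by the limma test of the difference itself. The DKO libraries here are those of the direct comparison, so these values are not separate evidence.

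Among genes lower after deletion at 1 day, the difference of the effects (log2, 1 day minus 3 weeks) was -3.63 for Cyp2c29, -3.26 for Cyp2c50, -3.07 for Cyp2c37, -3.33 for Cyp2e1, -2.33 for Nr1i3, -2.81 for Mfsd2a, -2.56 for Cyp2c54, -2.96 for Ccbl2, -2.54 for Prodh, -4.18 for Dbp, -2.22 for Cyp2a5 and -2.21 for Lhpp. Dbp is an output of the clock, and its control means were 7.56 FPKM for injection at 1 day and 0.802 FPKM for injection at 3 weeks.

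Among genes higher after deletion at 1 day, the difference of the effects was 1.83 for H19, 2.97 for Malat1, 1.76 for Col27a1, 2.45 for Fst, 2.31 for Col5a2, 2.79 for H2-Q8, 2.53 for Inhba, 2.75 for Sult2a7, 3.69 for Gbp11, 4.57 for Myc, 3.46 for Pnpla3 and 3.30 for Orm3. It was 3.30 for the record Mir8094, whose values after deletion at 3 weeks were in effect 0. For Myc the control means were 4.84 and 19.4 FPKM.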

How the results depend on the processing

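No paired analysis was possible because the columns carry no replicate numbers shared between groups. The direct comparison called 850 genes, and its count moved with the setting: about 4.3e+02 with every gene above 0 (194 higher, 238 lower), 483 with the 11 libraries of injected mice, 233 with the 5 DKO libraries, 1968 with libraries centred on their median, 1969 with quantile normalization (48.9% lower, against 65.4%), 2700 with array weights and 231 with a limit of 1 log2 unit. Alternatives chosen after seeing the data gave 1475 (without the 3 week WT libraries and control 3 weeks library C) and 1544 (length trend removed). Leaving out 1 library gave 65 (DKO 3 weeks B) to 1662 (DKO 1 day B), with 138 without DKO 1 day A, 273 without DKO 1 day C and 416 without DKO 3 weeks A. A minimum mean of 5 FPKM gave 806 (77.4% lower).

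The difference of the effects called 894 genes, and 226 both with every gene above 0 and with the 11 libraries, 2283 centred, 1975 quantile normalized, 3008 with array weights, 494 with a limit of 1 log2 unit and 1535 with the length trend removed. Leaving out 1 library gave 33 (DKO 3 weeks B) to 1847 (DKO 1 day B), with 72 without control 1 day C, 78 without DKO 1 day A, 191 without control 3 weeks A, 198 without DKO 1 day C, 444 without control 3 weeks C and 1342 without control 1 day B. The controls differed at 2 genes, at 388 with array weights, at 0 by limma with genes at 0 in any library left out (754 at an unadjusted p under 0.05), and at 2 to 14 when 1 library was left out (14 without control 3 weeks B, 5 without DKO 1 day C).

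The induction classes held 201 and 816 genes with a limit of 0.5 log2 units in place of 1. Genes with a tile of higher methylation numbered 90 (called lower), 89 (called higher) and 1628 (not called) at 25 points, 22, 24 and 368 at 50 points, and within 20 kb 98 of 501 (called lower, 19.6%), 75 of 265 (called higher, 28.3%) and 1680 of 8041 (not called, 20.9%). No called gene named by the rule changed direction under the alternatives run. Of 66, 32 lost their call without DKO 1 day A, 22 without DKO 1 day C, 23 with 11 libraries, 28 with 5 libraries and 6 with the length trend removed. The causes were not tested. Depth is known only as a relative value, which limits what can be said of low genes.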

Other observations

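Families were counted by symbol after their values were seen. Of 19 glutathione S-transferase genes, which conjugate toxic compounds, 4 were lower and none higher in the direct comparison by limma, with a median log2 difference of -0.67, and none passed without DKO 3 weeks library B. Of 13 aldehyde dehydrogenase genes 3 were lower and none higher. With the length trend removed 5 were lower and 1 higher, when 8.71% and 8.12% of all genes were. Of 7 sulfotransferase genes 3 were higher and 1 lower, but Sult1e1 and Sult4a1 reached the level only in the group where they were higher, and of the other 5, 1 was higher and 1 lower. Of 188 solute carriers 11 were higher and 10 lower, and of 31 ATP-binding cassette transporters 3 were higher and none lower. With DKO 3 weeks library B left out 1 solute carrier was higher and 1 lower, and no ATP-binding cassette transporter passed by limma. Over all genes 2.98% were higher and 5.64% lower.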
